A study of Homo sapiens with 6 samples.

Results

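Transcription factors that set gut and liver identity were measured after TAZ was silenced in CAOV2 ovarian cancer cells. They are CDX2, ISX, HNF4A, HNF4G, FOXA1, NR5A2, ONECUT2, ELF3 and CREB3L3, chosen by symbol, and all 9 were found among the 17211 genes of the deposited table. The values that chose them are those of the siTAZ and siNT libraries compared here, so their differences, and the calls that a fit over all genes gives them, are a description and no test of them. The siTAZ group is 3 samples transfected for 2 days with 100 pmol of an siRNA against TAZ (WWTR1, a coactivator of the Hippo pathway that works through TEAD factors) and collected on day 3. The siNT group is 3 samples given a non-targeting siRNA in the same way. The labels call CAOV2 both a cell line and primary cells, carry 1 catalogue number for the TAZ siRNA, and call the samples biological replicates without naming separate cultures, so errors and p-values cover the spread among these 6 libraries alone, part of which may be technical. Poly(A) RNA was sequenced to 28458503 to 34488196 reads in genes in siTAZ and 25478595 to 28928432 in siNT.

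Lineage factors of the gut tube work as a network in which members bind each other's genes. FOXA factors open chromatin, HNF4 nuclear receptors activate genes of absorption and plasma protein synthesis, and CDX2 sets intestinal rather than gastric fate. ONECUT factors act in liver and pancreas development, NR5A2 (LRH-1) in bile acid and cholesterol genes, and ELF3, an ETS factor, in epithelial differentiation. CREB3L3 (CREBH) is held in the endoplasmic reticulum of liver and gut cells until it is cleaved, and ISX is an intestinal homeobox factor.

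Levels below are the deposited values, which are reads divided by 1 size factor per library. TAZ's own transcript, WWTR1, had 242, 277 and 279.7 in the siTAZ libraries, against 4359, 4217 and 4258 in the siNT libraries, and the groups were far apart. Log2 values correlated between libraries at a Pearson's r of 0.992 to 0.995 within groups and 0.972 to 0.975 between them, across genes that are not independent replicates. In bulk RNA, more cells of a kind and more RNA per cell cannot be told apart.

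The promoters of the members are shown here as a description, and whether the factors bind them was not tested. RefSeq (GRCh38.p14) gave 10 windows of 300 bases, from 250 bases before to 50 after an annotated start, for 8 of the 9 genes, with a pair each for HNF4A and NR5A2. The 4 printed are those of CDX2, the upstream and downstream starts of HNF4A, and the downstream start of NR5A2, since these are the windows among the 10 that hold the short motif of a FOXA, HNF4 or ONECUT factor. Each runs 5′ to 3′ on the gene's strand, and capitals mark matches on either strand to any of the 9 short motifs reported. The positions are chr13:27969266-27969565 (minus strand), chr20:44355449-44355748 and chr20:44400989-44401288 (plus strand), and chr1:200042341-200042640 (plus strand).
CDX2: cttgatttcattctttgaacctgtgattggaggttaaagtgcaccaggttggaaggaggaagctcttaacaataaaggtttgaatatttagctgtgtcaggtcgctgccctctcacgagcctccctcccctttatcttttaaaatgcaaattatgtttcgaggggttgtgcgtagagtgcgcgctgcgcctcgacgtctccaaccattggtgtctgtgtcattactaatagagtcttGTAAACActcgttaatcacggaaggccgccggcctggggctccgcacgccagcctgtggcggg
HNF4A upstream start: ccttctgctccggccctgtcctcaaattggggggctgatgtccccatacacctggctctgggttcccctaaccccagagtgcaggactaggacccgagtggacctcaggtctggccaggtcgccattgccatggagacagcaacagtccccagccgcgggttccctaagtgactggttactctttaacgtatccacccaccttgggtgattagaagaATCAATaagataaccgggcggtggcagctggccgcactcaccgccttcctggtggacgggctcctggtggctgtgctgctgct
HNF4A downstream start: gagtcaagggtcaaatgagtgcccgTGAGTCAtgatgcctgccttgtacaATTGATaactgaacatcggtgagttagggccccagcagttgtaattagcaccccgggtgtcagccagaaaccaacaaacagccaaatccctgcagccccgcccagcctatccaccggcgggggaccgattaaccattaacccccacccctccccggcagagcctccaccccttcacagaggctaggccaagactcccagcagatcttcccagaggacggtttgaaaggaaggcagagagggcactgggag
NR5A2 downstream start: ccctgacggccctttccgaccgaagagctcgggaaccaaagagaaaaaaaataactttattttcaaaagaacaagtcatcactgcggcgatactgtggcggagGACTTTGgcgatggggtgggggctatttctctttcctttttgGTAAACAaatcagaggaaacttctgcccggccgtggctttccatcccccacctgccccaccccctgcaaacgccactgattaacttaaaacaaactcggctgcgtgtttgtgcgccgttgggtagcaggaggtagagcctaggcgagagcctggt

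The FOXA motif TGTTTAC was in 2 of the 10 member windows, against 3.42% of the 35116 windows in the table. Its first base lay 13 bases before the start in CDX2 and 105 before the downstream start in NR5A2. The HNF4 motif CAAAGTC was in 1 (downstream NR5A2, 147 bases before the start), against 3.37%. The ONECUT motif ATCAAT was in both HNF4A windows, 33 bases before the upstream start and 200 before the downstream one, against 6.26%. The AP-1 motif TGANTCA was in 2 windows (downstream HNF4A and upstream NR5A2), against 7.71%. The CDX motif TTTATG was in 1 (upstream NR5A2), against 10.6%, and the ETS motif GGAAGT in 1 (FOXA1), against 22.8%. No window held the TEAD motif GGAATG (14% of all windows), the NR5A2 motif AAGGTCA (3.92%) or the CREB motif TGACGTC (3.45%). Motif letters were matched on both strands, no 2 matches in the member windows shared a base, and a match or its lack in so short a window says nothing of whether the factor binds there. The windows of ISX, ONECUT2, ELF3 and CREB3L3 held none of the 9 motifs.

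Base composition differed widely among the windows. G and C made up 36.7% of the upstream NR5A2 window and 69.3% of the FOXA1 window, against a median of 58.7% over all windows. The FOXA1 and ONECUT2 windows held 34 and 24 CpG dinucleotides, while ISX held 1 and the upstream NR5A2 window 0. The members were chosen from this same contrast, so nothing about their rise is read from base composition.

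All 9 factors were higher in siTAZ, and in each the lowest siTAZ library lay above the highest siNT library. Over all 17204 genes tested, the groups parted in that direction in 31.1% and in the other in 30.3%, and limma called 55.8% at an adjusted p under 0.05, 28.3% as higher and 27.5% as lower. All 9 members passed limma as higher, a count that the choice of members may have fixed and from which nothing is read. Their folds of group means ran from 1.38 to 2.98 with a median of 2.24, and their median log2 fold change was 1.15, beside -0.0013 over all genes tested. Of all genes, 6.83% were called higher with a fold of at least 2, as were 5 of the members (CDX2, ISX, HNF4G, NR5A2 and ELF3).

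**Figure D1:**
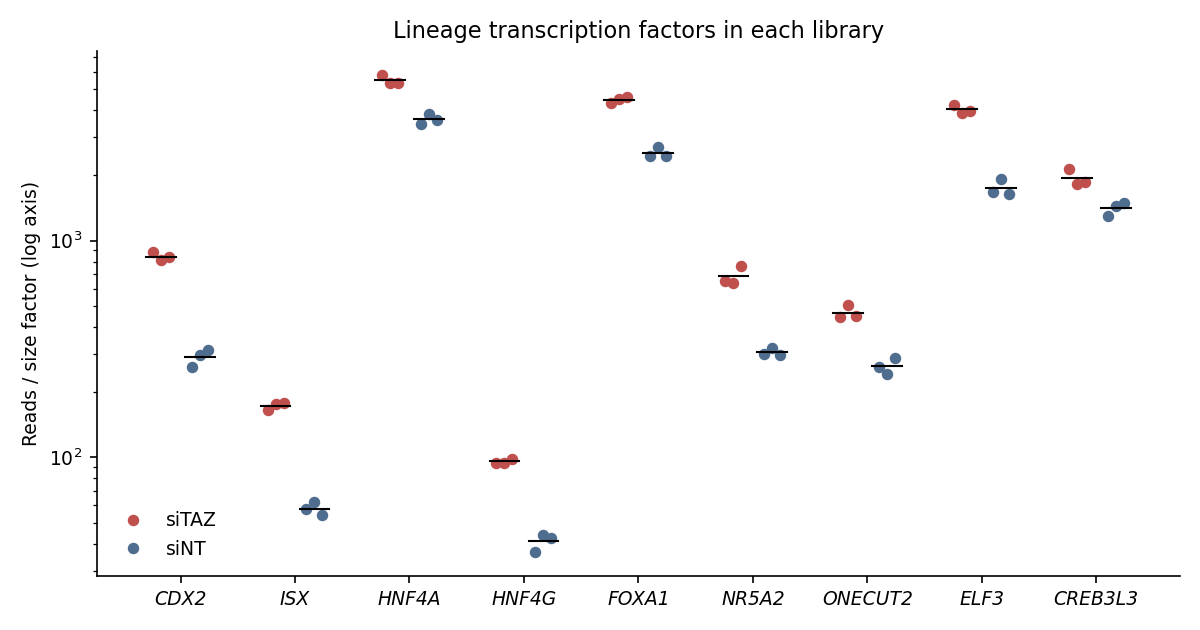
Deposited value (reads over size factor, log axis) of each of the 9 lineage factors in the 3 siTAZ and 3 siNT libraries (points), with group means as bars. For each gene the siTAZ points lie above the siNT points, and the levels span from 36.6 for HNF4G in a siNT library to 5827 for HNF4A in a siTAZ library.

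The intestinal homeobox genes had the largest folds of the 9. CDX2 (ENSG00000165556, chromosome 13), which drives intestinal identity, had 881, 814 and 837 in the siTAZ libraries, against 261, 295 and 314 in the siNT libraries. Its lowest siTAZ library was more than 2-fold above its highest siNT library, and the mean was 2.91-fold higher (log2 fold change 1.54, SE 0.08). ISX (ENSG00000175329, chromosome 22), which in mouse intestine represses the vitamin A genes BCO1 and SCARB1, had 165, 176 and 177 in siTAZ, against 57.6, 62.0 and 54.4 in siNT. It was 2.98-fold higher (log2 fold change 1.56, SE 0.12), with libraries of each group close together. PDX1, the pancreatic and duodenal homeobox gene, is the nearest protein-coding gene to CDX2 on one side in the RefSeq order on chromosome 13. It had 659, 631 and 641 in siTAZ, against 261, 290 and 320 in siNT (2.22-fold, limma adjusted p = 3.7e-09).

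The HNF4 pair differed in level and in fold. HNF4A (ENSG00000101076, chromosome 20), a nuclear receptor of hepatocytes and enterocytes, had 5827, 5325 and 5306 in siTAZ, against 3446, 3825 and 3593 in siNT. It was the member with the highest values before length is taken into account, and it was 1.52-fold higher in siTAZ (log2 fold change 0.60, SE 0.05). HNF4G (ENSG00000164749, chromosome 8), which shares intestinal work with HNF4A in mouse, was the scarcest member, with 94.6, 94.5 and 98.1 in siTAZ and 36.6, 43.8 and 42.3 in siNT. It was 2.34-fold higher (log2 fold change 1.21, SE 0.15). Per kb of transcript, HNF4A exceeded HNF4G 35.3-fold to 40.2-fold in the siTAZ libraries and 55.5-fold to 61.4-fold in the siNT libraries. The table gives 1 value per gene, so transcripts of the upstream and downstream HNF4A starts cannot be told apart.

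FOXA1 (ENSG00000129514, chromosome 14), a pioneer factor, had 4327, 4479.9 and 4587 in siTAZ, against 2448, 2705 and 2464 in siNT. The lowest siTAZ library stood well above the highest siNT library, and the mean was 1.76-fold higher (log2 fold change 0.81, SE 0.05). NR5A2 (ENSG00000116833, chromosome 1) had 654, 636 and 759.9 in siTAZ, against 301, 319 and 297 in siNT, and was 2.24-fold higher (log2 fold change 1.15, SE 0.08). Its siTAZ replicate 3 stood above the other siTAZ libraries, and without it the log2 fold change was 1.08. ONECUT2 (ENSG00000119547, chromosome 18) had 446, 502 and 449 in siTAZ, against 262, 242 and 286 in siNT. Its groups parted by less than those of CDX2, at 1.77-fold (log2 fold change 0.82, SE 0.09).

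ELF3 (ENSG00000163435, chromosome 1) had 4237, 3893 and 3945 in siTAZ, against 1671, 1930.4 and 1635 in siNT. Every siTAZ library held more than 2 times the ELF3 of any siNT library, with a log2 fold change of 1.21 (SE 0.06). The antisense gene ELF3-AS1, which overlaps ELF3 in the GENCODE annotation and was singled out after its values were seen, had 175, 169 and 159 in siTAZ, against 114, 145 and 127 in siNT (limma adjusted p = 0.0096). FOXA1 is overlapped by TTC6 on the other strand, which had 138, 165 and 181 in siTAZ, against 143, 153 and 112 in siNT, and did not pass (limma adjusted p = 0.13). A scarce gene within ELF3, ENSG00000249007, averaged 6.88 in siTAZ and 4.17 in siNT and did not pass (limma adjusted p = 0.32). No strand setting for the counting was found in the sources used here, so reads of overlapping genes may not be fully parted. CREB3L3 (ENSG00000060566, chromosome 19) had 2142, 1818 and 1868 in siTAZ, against 1303, 1445 and 1484 in siNT. It had the smallest difference of the 9, at 1.38-fold (log2 fold change 0.46, SE 0.07), and siTAZ replicate 1 was its highest library.

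Spread within groups was small beside the differences. The coefficient of variation over the libraries of a group was 2.13% to 9.81% in siTAZ and 3.75% to 9.34% in siNT. The summed value of the 9 genes was 17740 to 18773 in siTAZ and 9785 to 10866 in siNT. Within siTAZ, replicate 1 was highest for 4 members (CDX2, HNF4A, ELF3 and CREB3L3) and replicate 3 for 4 others (ISX, HNF4G, FOXA1 and NR5A2), so no siTAZ library was highest throughout. Within siNT, replicate 2 was highest for 6 members and replicate 1 for 0.

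Per kb of each gene's longest annotated transcript, FOXA1 was the most abundant factor in both groups, at 1559.9 ± 45.7 in siTAZ and 887 ± 50.4 in siNT (deposited value per kb, SD, n = 3 each). In siTAZ it was followed by HNF4A (851 ± 45.8), ELF3 (806 ± 37.1) and CREB3L3 (742 ± 66.7), whose neighbours in that order overlapped over the libraries. CDX2 (208 ± 8.41), NR5A2 (134 ± 13.2), ISX (51.1 ± 1.99), ONECUT2 (28.9 ± 1.97) and HNF4G (22.7 ± 0.485) came after them, each apart from the next. In siNT, CREB3L3 (539 ± 36.5) stood above ELF3 (349.5 ± 32.3), apart over all libraries. The order of the other members was the same in both groups. In siNT, HNF4A overlapped CREB3L3, and ISX (17.1 ± 1.13) overlapped ONECUT2 (16.3 ± 1.39). With the median transcript length in place of the longest, ELF3 came above HNF4A in siTAZ and above CREB3L3 in siNT, and ISX moved to the last place in both groups, so these ranks depend on the length used.

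**Figure D2:**
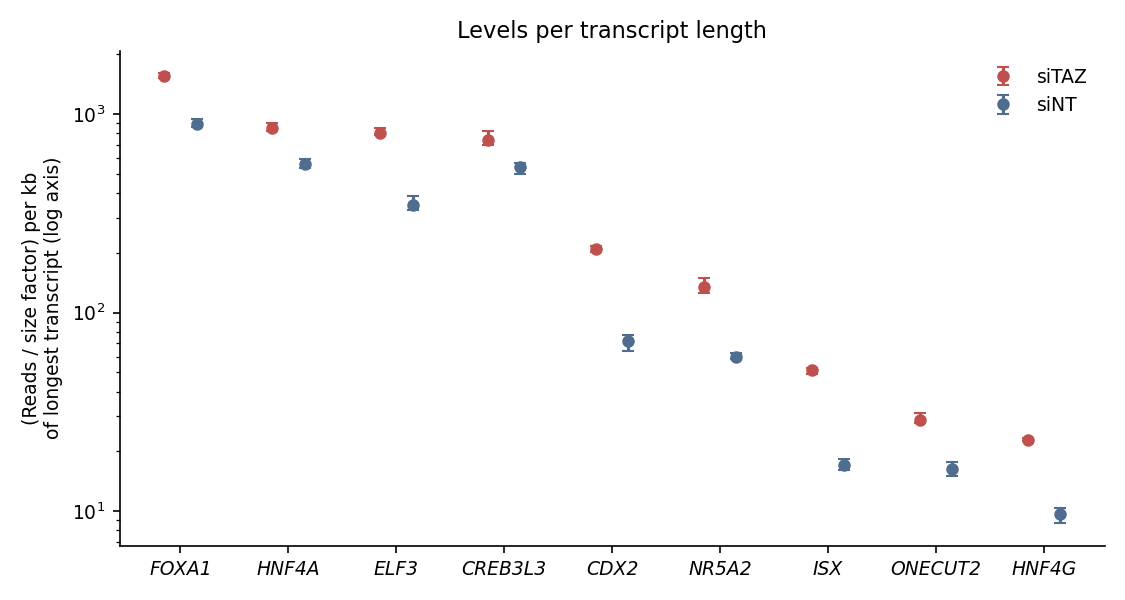
Deposited value per kb of the longest annotated transcript (log axis) for the 9 factors in siTAZ and siNT, as the mean of 3 libraries with bars from the lowest to the highest library. FOXA1 leads in both groups and HNF4G is last, and ELF3 lies near CREB3L3 in siTAZ but below it in siNT.

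The structural relatives of the members did not move as one. Like the members, they and the companion lists below were chosen with earlier results of these data known. Their counts and p-values are therefore a description and no independent support for the members. Of 13 relatives, 8 were listed in the table, and by limma 5 rose, 0 fell and 3 did not pass. That is 62.5% called higher, beside 28.3% of all genes, and the median log2 fold change was 0.39. CREB3L1, a membrane-bound factor of secretory cells, rose the most of the CREB3 family, with 2325, 2287 and 2314 in siTAZ, against 850.3, 1052 and 949.8 in siNT (2.43-fold, limma adjusted p = 8.1e-11). CREB3L2, a related secretory factor, rose 1.67-fold, to 5158 ± 123 in siTAZ against 3084 ± 45.5 in siNT, and CREB3L4 rose 1.25-fold. CREB3 itself averaged 1078 ± 50.7 in siTAZ and 1006 ± 34.4 in siNT and did not pass (limma adjusted p = 0.17).

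FOXA2, the liver and foregut relative of FOXA1, had 2962, 2628 and 2579 in siTAZ, against 2571, 2805 and 2689 in siNT. These groups overlapped, at 0.02 on the log2 scale (SE 0.06, adjusted p = 0.82 by limma), and FOXA2 did not pass under any of the 17 alternatives, where its log2 fold change ran from -0.05 to 0.07. FOXA3, a hepatocyte relative, rose 1.39-fold (limma adjusted p = 0.0012). EHF, an epithelial ETS factor close to ELF3, was scarce and rose 2.43-fold, to 23.0 ± 1.60 in siTAZ against 9.43 ± 3.39 in siNT (limma adjusted p = 0.0024). ONECUT1 was near the floor, with 9 reads in siTAZ and 10 in siNT over the 3 libraries of each group. CDX1, CDX4, NR5A1, ONECUT3 and ELF5 are not in the table, which lists few genes with low values, so their levels are not known here.

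**Figure D3:**
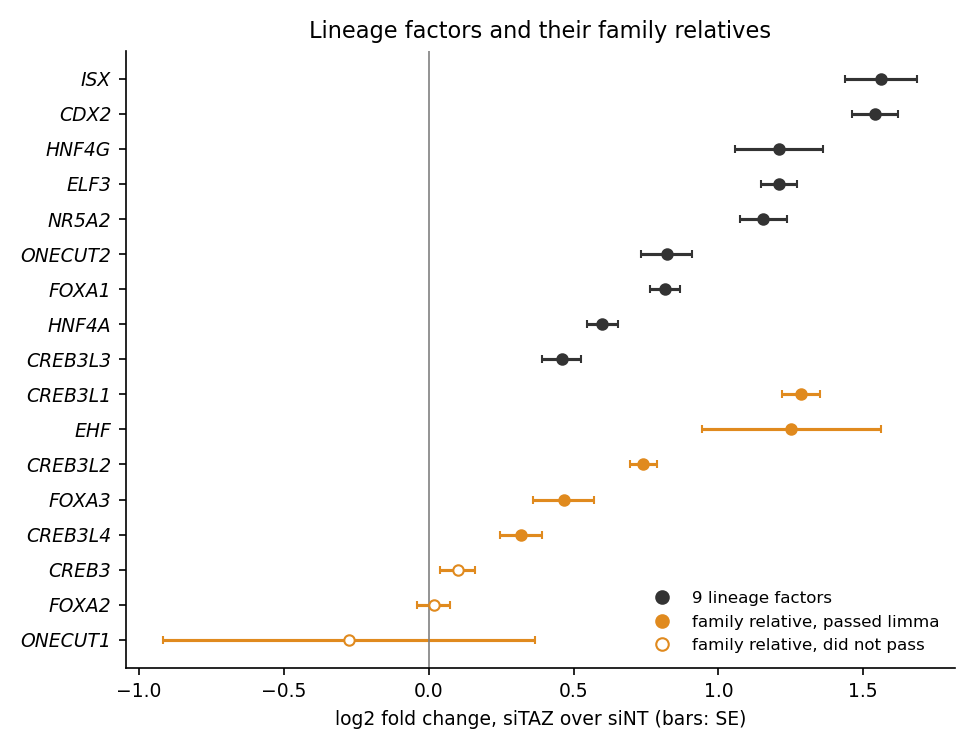
Log2 fold change, siTAZ over siNT, of the 9 lineage factors and of 8 family relatives listed in the table (bars are SE from limma, 3 libraries a group). The 9 factors lie between 0.46 and 1.56, while open points mark the 3 relatives that did not pass, among them FOXA2 at 0.02.

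Among 20 listed factors of 28 others known from gut and liver, limma called 15 higher, 2 lower and 3 neither. That is 75% called higher, beside 28.3% of all genes. The median log2 fold change was 0.31. NR0B2 (SHP), a corepressor of NR5A2 and HNF4A, rose 5.24-fold, with 1302, 1111 and 1091 in siTAZ, against 207, 247 and 215 in siNT (limma adjusted p = 1.2e-12). SPDEF, an ETS factor of goblet cells, rose 12.9-fold, with 477, 444 and 437 in siTAZ, against 29.3, 46.0 and 30.2 in siNT (limma adjusted p = 4.7e-12). NR2F1, an orphan nuclear receptor, rose 1.79-fold (limma adjusted p = 6.7e-08).

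CEBPB, a factor of the acute phase response, fell to 1776 ± 102 in siTAZ against 2687 ± 155 in siNT (limma adjusted p = 1.5e-07). RXRA, the shared partner of many nuclear receptors, fell to 2679 ± 71.2 in siTAZ against 3045 ± 178 in siNT (limma adjusted p = 0.0068). These are the 2 falls of that list. NR2F6 averaged 5874 ± 215 in siTAZ and 6300.1 ± 433 in siNT, and TBX3 1434 ± 37.5 and 1489 ± 20.0, and neither passed limma (adjusted p = 0.12 and 0.39).

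Genes that mature enterocytes express were mostly higher. Of 25 listed among 34, limma called 23 higher (92%, beside 28.3% of all genes), 1 lower and 1 neither. This list too was chosen with earlier results known, so the count is a description. The median log2 fold change was 1.68, or 1.51 with the 3 genes of 3 or fewer siNT reads (SLC6A19, KRT20 and HEPH) held at the floor of 3 reads per library in siNT. These 3 are among the 23 called higher. The gene filter is not known, so they may be listed only through their siTAZ reads. That would have fixed their direction and raised the share called higher. USH1C (harmonin), a brush border gene, had 1449, 1448 and 1318 in siTAZ, against 223, 226 and 222 in siNT (6.28-fold, limma adjusted p = 2.7e-14). Its partner ANKS4B rose 4.65-fold, the villin gene VIL1 2.62-fold, and the metalloprotease gene MEP1A 8.68-fold. CDH17, the liver-intestine cadherin and a known CDX2 target, had 16101, 16024 and 16255 in siTAZ, against 6055, 5642 and 5566 in siNT (2.80-fold, limma adjusted p = 2.1e-13). KRT18, a keratin, fell to 22365 ± 1129 in siTAZ against 27495 ± 1133 in siNT (limma adjusted p = 7.0e-05). KRT8, another keratin and among the 23 called higher, rose 1.12-fold (limma adjusted p = 0.0084). Processed copies can share the reads of both keratins, and their part was not tested. ANPEP, an aminopeptidase, averaged 1203 ± 94.4 in siTAZ and 1127 ± 55.4 in siNT and did not pass (limma adjusted p = 0.24).

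Hepatocyte genes were also mostly higher. Of 17 listed among 25, limma called 15 higher (88.2%, beside 28.3% of all genes), 0 lower and 2 neither. The median log2 fold change was 1.35. Most were scarce, with a median of 77.7 over all libraries. SERPINA1 (alpha-1 antitrypsin) had 436, 359 and 313 in siTAZ, against 28.3, 28.9 and 32.6 in siNT (12.3-fold, limma adjusted p = 2.9e-12). Coagulation factor F7 rose 8.88-fold, APOH 6.20-fold, angiotensinogen (AGT) 13.6-fold and transthyretin (TTR) 9.85-fold. TAT, a tyrosine enzyme gene, averaged 11.9 ± 1.42 in siTAZ and 12.1 ± 2.24 in siNT, and the asialoglycoprotein receptor gene ASGR1 68.5 ± 18.5 and 66.2 ± 4.09, and neither passed limma (adjusted p = 0.97 and 0.95).

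Targets of these factors in lipoprotein, carotenoid and bile acid handling varied widely in level, with a median of 30.6 over all libraries. Of 11 listed among 19, limma called 8 higher (72.7%, beside 28.3% of all genes), 0 lower and 3 neither. The median log2 fold change was 1.37, or 1.14 with 3 genes of 3 or fewer siNT reads (APOA4, APOB and APOC3) held at the floor, and it was 0.62 with a pseudocount of 10 in place of 1. CIDEC, a lipid droplet gene activated by CREB3L3 in mouse liver, rose 2.44-fold, with 273, 256 and 245 in siTAZ, against 101, 129 and 87.0 in siNT (limma adjusted p = 2.4e-07). BCO1, which cleaves carotene and is repressed by ISX in mouse, had 62.3, 44.1 and 55.4 in siTAZ, against 3.14, 16.0 and 2.42 in siNT (limma adjusted p = 1.4e-05). Its siNT replicate 2 stood above the other siNT libraries, and below every siTAZ library. SCARB1, the lipoprotein receptor that ISX also represses in mouse, rose 1.27-fold (limma adjusted p = 1.9e-05). APOA1 rose 4.83-fold, and APOB, with 24 reads in siTAZ and 0 in siNT, was at least 2.20-fold higher if each siNT library is set to 3 reads. APOB and APOC3, both among the 8 called higher, may be listed only through their siTAZ reads. That would have fixed their direction. ABCG5 and CEL did not pass limma (adjusted p = 0.077 and 0.35), with means of 6.59 and 30.1 in siTAZ and 1.87 and 39.7 in siNT.

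**Figure D4:**
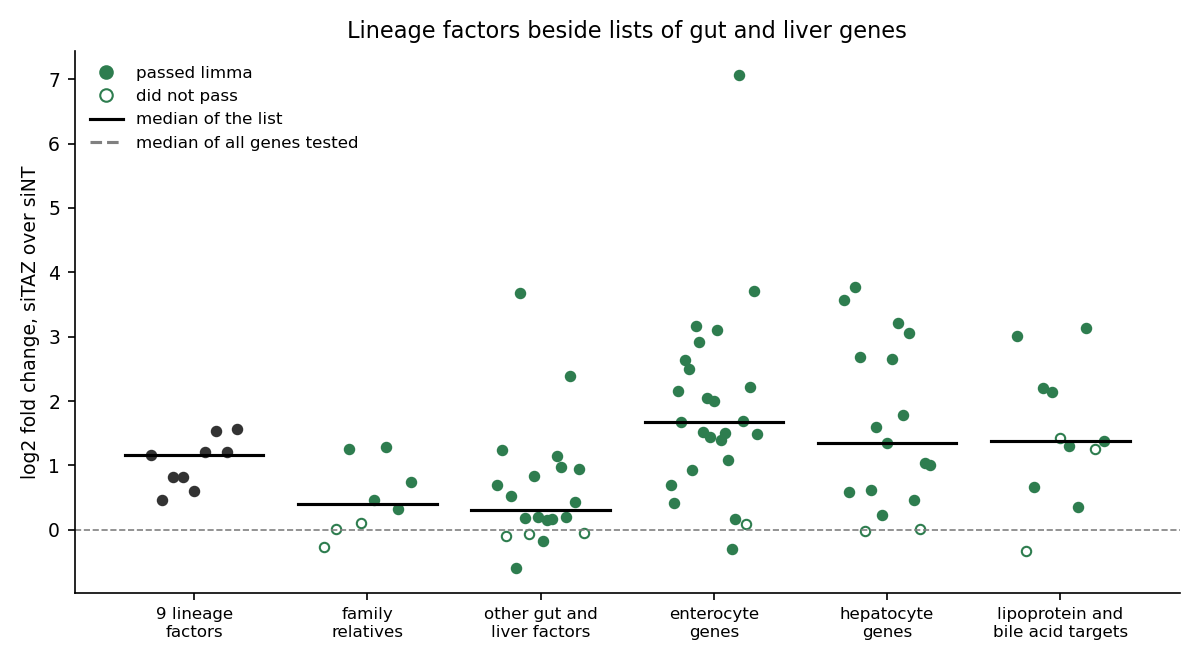
Log2 fold change, siTAZ over siNT, of each listed gene in the 9 lineage factors and the 5 companion lists (points), with the median of each list and of all 17204 genes tested. Medians run from 0.31 for other gut and liver factors to 1.68 for enterocyte genes, and the point near 7 is SLC6A19, which had 0 reads in siNT, so that its fitted value depends on the pseudocount.

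The pattern most like the members' own, over named genes with a mean of at least 100 and by Pearson's r over the 6 libraries with the mean of the members' z-scores, was that of SDC3, LGALS3, ACVR1B, LPCAT1 and KCNAB2. Their r ran from 0.9994 to 0.9996. All 6 libraries belong to this contrast, and most of each r is the step between the groups. SDC3, a syndecan, averaged 4469.5 ± 122 in siTAZ and 1709 ± 124 in siNT, and KCNAB2, a potassium channel subunit, 1241 ± 79.3 and 388 ± 35.0.

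Markers of the labelled tumour type were partly unlisted, and the levels of those not listed are not known. Of 12 ovarian carcinoma markers, WT1, SOX17, EMX2 and ESR1 are not in the table. PAX8, the Müllerian lineage factor, averaged 18.2 ± 3.28 in siTAZ and 28.8 ± 13.9 in siNT, and MUC16 (CA125) 7.98 ± 1.55 and 11.9 ± 3.67, far below HNF4A in the same libraries before any account of length. Of the 8 listed, limma called 5 higher (62.5%, beside 28.3% of all genes), 1 lower and 2 (PAX8 and MUC16) neither. The median log2 fold change of the 8 was 0.88. EPCAM averaged 1361 ± 42.0 in siTAZ and 501 ± 10.4 in siNT, CDH6 1779 ± 85.9 and 690 ± 44.4, and MECOM 1253 ± 93.0 and 892 ± 26.5. FOLR1 and MSLN, both scarce, also rose, 2.75-fold and 2.91-fold. KRT7 was the 1 that fell, to 8604 ± 879 in siTAZ against 22847 ± 1266 in siNT. None of the 6 endothelial markers and none of PTPRC, CD3E and CD3D is in the table. Of 8 leukocyte markers 4 were listed, summing to 301 to 352 in siTAZ and 198 to 214 in siNT. LYZ (127 ± 18.8 in siTAZ and 20.9 ± 1.92 in siNT) and CD14 rose, CD79A fell (34.5 ± 1.09 in siTAZ and 64.6 ± 6.99 in siNT), and CD68 did not pass limma. Of 8 fibroblast markers 6 were listed (DCN and THY1 were not), summing to 6614 to 7502 in siTAZ and 5609.5 to 6399 in siNT. Of these COL3A1 (2.13-fold), PDGFRA (1.36-fold) and PDGFRB (3.39-fold) rose, COL1A2 fell (4 reads in siTAZ and 34 in siNT), and COL1A1 and LUM did not pass limma. Of 5 mesothelial markers 2 were listed, summing to 22.9 to 36.4 in siTAZ and 58.8 to 77.3 in siNT, of which CALB2 fell and UPK3B did not pass. Their part in the results above was not tested.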

How the data were processed

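Poly(A) RNA of 3 siTAZ and 3 siNT samples was sequenced with a stranded kit, per the labels' protocols. The submitters' processing notes name hg19, HISAT2, HTSeq, DESeq2 and FastQC. Versions, annotation, strand setting and gene filter were not found there. The deposited values are a signal of reads over 1 size factor per library: within each library 100% came out as whole reads (tolerance 0.001) once divided by the smallest step, which recovered the counts. Of 17211 genes, 7 had a mean under 1 and 1751 under 10, and a gene not listed may have had reads. Names came from Ensembl identifiers (16662 genes) or GENCODE release 29 (81), and 468 stayed unnamed. Transcript lengths are GENCODE's, on GRCh38.

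The members, companion lists and tests were chosen with earlier results of these data known. Limma 3.58.1 in R 4.3.3 was fitted with an intensity trend to log2(deposited value + 1), with group as the only term, over 17204 genes (minimum mean 1). P-values were adjusted by Benjamini-Hochberg over all genes, with a threshold of 0.05. Log2 fold changes (siTAZ over siNT) are on that scale and understate changes of low genes. Named genes are all members and listed relatives, WWTR1, and from each other list up to 5 called genes with the smallest adjusted p and up to 2 uncalled with the highest mean. Others were named after their values were seen, and some items that the rules would name are not reported here. Alternatives on recovered reads used edgeR 4.0.16, DESeq2 1.42.0 and limma voom. These and the main limma fit were run on simulated counts in which few genes changed. That setting does not cover data in which as many genes are called as here, and the other alternatives were not simulated. Counting error only is covered by the floor of 3 reads. No 2 libraries were copies: read counts within groups differed beyond sampling noise (chi-square over degrees of freedom 2.64 to 8.10). Tables were handled in Python 3.11.15.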

Additional observations from a re-analysis of the deposited data

How the results depend on the processing

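The libraries that chose the 9 lineage factors are those refitted here, so that all 9 were called higher under all 17 alternatives is no sign of stability. Their log2 fold changes spanned 1.47 to 1.60 for CDX2, 1.43 to 1.61 for ISX, 0.555 to 0.65 for HNF4A, 1.06 to 1.26 for HNF4G, 0.79 to 0.87 for FOXA1, 1.08 to 1.21 for NR5A2, 0.76 to 0.88 for ONECUT2, 1.16 to 1.28 for ELF3 and 0.39 to 0.51 for CREB3L3. Only HNF4G and ISX moved by more than the spread between replicates, both with a pseudocount of 10. Counts of calls stayed within 1.5 times those reported, except that 1 rather than 2 of the other gut and liver factors were lower without an intensity trend, and 1 to 3 with a library left out, and that 0 or 1 of the lipoprotein and bile acid targets were lower with a library left out (CEL, without siNT replicate 3, adjusted p = 0.022). ABCG5 passed in edgeR and without siTAZ replicate 1, NR2F6, as lower, without siTAZ replicate 1 or siNT replicate 1, and CREB3 under total count scaling (adjusted p = 0.034). Beside their titles, the sample descriptions carry another number, which no siTAZ sample shares with a siNT sample and which skips some values. Titles number the replicates 1 to 3 in both groups, but same-numbered samples did not deviate together (correlations of -0.14, -0.08 and 0.02). Differently numbered pairs ran from -0.097 to 0.15. With so few libraries, these values neither show nor exclude a pairing by number. With the number as a replicate block, 4439 genes were higher and 4262 lower, against 4874 and 4730 without it, and 12 rather than 15 of the other gut and liver factors were higher. The edgeR test on recovered reads called 4963 higher and 4667 lower, DESeq2 4398 and 4355. The median log2 fold change of the lipoprotein and bile acid targets ran from 0.62 (pseudocount of 10) to 1.85 (DESeq2), and that of the hepatocyte genes from 0.95 (pseudocount of 10) to 1.72 (without siNT replicate 2). With a pseudocount of 10 in place of 1, the log2 fold change of BCO1 was 1.97 rather than 3.13.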
